A study of Mus musculus with 30 samples.

Results

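The comparison set salivary glands taken at week 24 from mice given an antibody against CD40L beside glands taken at week 16 from mice given a control antibody. Its members were the 5 arrays labelled as anti-CD40L at week 24 and the 5 labelled as control IgG at week 16, 10 of the 30 arrays in the series. The labels assign the arrays to these groups. All animals were female NOD.H-2h4 mice that had received 1 intraperitoneal dose of 20 mg/kg at 4 weeks of age, either anti-CD40L antibody or a human IgG1 isotype control. Both groups therefore share the strain, the sex, the injection and its timing, and differ in antibody and in age at collection. Differences due to antibody and differences due to 8 weeks of age cannot be told apart in this comparison. The labels call the arrays biological replicates and do not say whether each array holds 1 mouse. The question was whether glands treated early and examined late resemble an earlier stage of the control disease course or a different state.

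NOD.H-2h4 mice develop autoimmune inflammation of the salivary and thyroid glands. In inflamed salivary glands B cells, T cells and antibody-secreting plasma cells collect around the ducts. CD40L, encoded by Cd40lg, is shown by activated T cells and engages CD40, a receptor of B cells, macrophages and dendritic cells, a signal needed for germinal centres and for much of the switched antibody response. Plasma cells secrete IgA into saliva, joined by the J chain and carried through the epithelium. Interferon gamma from T cells and natural killer cells raises MHC class II, chemokines such as CXCL9 and guanylate-binding GTPases in neighbouring cells.

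Whole gland RNA was measured on Affymetrix Mouse Genome 430 2.0 arrays, and all levels are log2 intensities, so a difference of 1 is a doubling. The 10 arrays had the tissue's own products at high level, with the granular duct list (kallikreins, Egf, Ren1) at a mean of 13.14 ± 0.24 in anti-CD40L week 24 glands and 13.16 ± 0.08 in control week 16 glands (SD, n = 5 each). Because whole glands were measured, fewer cells of a type and less RNA per cell cannot be told apart. The median standard error of the difference was 0.14. It was estimated from the spread within all 6 groups of the 30 arrays, so arrays outside the comparison also set it.

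Several arrays stood apart from the rest of their groups. Amy1, the salivary amylase made by the parotid gland, was at 7.34, 13.43, 10.65, 7.65 and 13.07 in anti-CD40L week 24 replicates 1 to 5, and at 12.38, 7.93, 8.95, 13.45 and 7.27 in control week 16 replicates 1 to 5. Both groups thus mix arrays with a high and a low level of this parotid product, and the difference of the group means was 0.43 (two-sided exact permutation p = 0.825). Control week 16 replicates 1 and 4, the 2 arrays of that group with high Amy1, were also the 2 with high lymphocyte and interferon transcripts. Results that touch those transcripts are given with and without these 2 arrays. The 2 arrays were singled out by the levels of those same transcripts. Leaving them out therefore raises the treated minus control difference of such lists by construction, and is a description only. Leaving them out also unbalances Amy1. The control week 16 arrays left all had Amy1 below 10, while 3 treated arrays lay above 10. The Amy1 difference then became 2.38. Anti-CD40L week 24 replicates 1 and 4, the only treated arrays with Amy1 below 10, had low levels of a pair of epithelial secretory products. Dcpp1, a secreted product of salivary acinar cells, was at 9.79 and 8.77 in these 2 arrays and at 13.43 to 13.67 in the other 3 of that group, against 13.54 to 13.67 in the control week 16 arrays. Ltf, lactoferrin, was at 5.80 and 5.18 in the same 2 arrays and at 11.33 to 11.45 in the other 3, against 10.02 to 10.85 in the control week 16 arrays. A sign of RNA quality, the gap between 3' and 5' probe sets of the control transcripts Gapdh and beta-actin, averaged 0.20 ± 0.04 in anti-CD40L week 24 glands and 0.29 ± 0.07 in control week 16 glands (SD, n = 5 each; exact permutation p = 0.0397, adjusted over 4 measures 0.159). With it as a covariate 0 genes were called, as without it, and 1455 genes passed an unadjusted p under 0.05, against 958 without it.

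**Figure D1:**
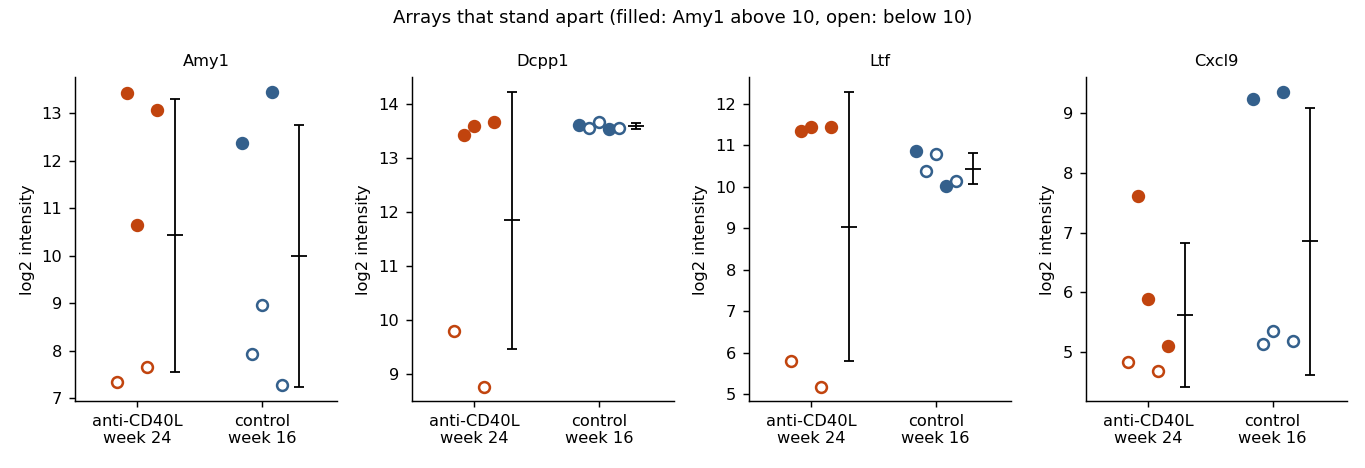
Log2 intensity of Amy1, Dcpp1, Ltf and Cxcl9 in each array of anti-CD40L week 24 (left in each panel) and control week 16 (right), with the mean and SD of each group; filled points are arrays with Amy1 above 10 and open points those below. The open anti-CD40L points at 8.77 and 9.79 for Dcpp1 are replicates 4 and 1, and the filled control points at 9.24 and 9.36 for Cxcl9 are replicates 1 and 4.

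With all 30 arrays in the fit, 0 of 12998 genes tested (0%) differed between anti-CD40L week 24 and control week 16 glands at an adjusted p under 0.05 in limma, and the lowest adjusted p was 0.0797. At an unadjusted p under 0.05, 958 genes (7.37%) passed, 584 higher (4.49%) and 374 lower (2.88%) in anti-CD40L week 24 glands. With only the 10 arrays compared in the fit, 2125 genes passed it and 1 was called. The 5 arrays of each group did not overlap for 425 genes lying higher (3.27%) and 183 genes lying lower (1.41%). The 95% interval of the difference lay within 1 of 0 for 97.7% of the genes, so that for most genes a change of more than 2-fold in either direction was outside the interval. The count of calls depends on how arrays are weighted. The array weights of limma, which give less to arrays far from their group, called 444 genes, 244 higher and 200 lower. These calls are named below where they touch a gene described. The lowest weights went to arrays outside the comparison, down to 0.245 in week 8 controls and 0.246 in week 24 controls. Control week 16 arrays had 1.26 to 2.28, with 1.84 and 1.26 for replicates 1 and 4. Anti-CD40L week 24 arrays had 0.877 to 2.16.

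Of the antibody's target pair, Cd40lg had group means of 4.76 in anti-CD40L week 24 glands and 4.86 in control week 16 glands, under the filter on low values, and was not tested. Cd40 was at 6.57, 6.25, 5.67, 6.09 and 5.86 in the anti-CD40L week 24 arrays and at 6.49, 6.30, 6.06, 6.60 and 6.14 in the control week 16 arrays. The groups overlapped, with a difference of -0.23 ± 0.16 (SE, adjusted p = 0.832), and of -0.08 without control week 16 replicates 1 and 4. In the CD40 and NF-kB response list 9 genes were tested: 0 were called, 6 lay below 0 and the median difference was -0.03, against 0.03 over all genes tested. Without the 2 control arrays the list's median was 0.10, and 7 of 9 lay above 0.

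The difference in antibody transcripts was the largest of any list described here. All 6 tested immunoglobulin genes lay lower in anti-CD40L week 24 glands, 4 of them at an unadjusted p under 0.05 where 2.88% of all genes did so, and their median difference was -0.88. None passed the adjusted threshold. The mean level of the list was 8.62, 10.04, 9.28, 9.24 and 9.24 in the anti-CD40L week 24 arrays and 10.61, 10.03, 9.54, 11.22 and 9.80 in the control week 16 arrays. A single treated array, replicate 2, reached the control range.

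Jchain encodes the joining chain of secreted IgA and IgM. Its level was 9.70, 11.47, 11.30, 10.48 and 10.90 in the anti-CD40L week 24 arrays, and 12.59, 12.23, 11.49, 12.47 and 11.89 in the control week 16 arrays. No treated array reached the lowest control array, and the difference was -1.37 ± 0.34 (SE, adjusted p = 0.14; 0.0115 with array weights). Igk, the kappa light chain, was at 8.48, 9.29, 9.43, 8.96 and 8.98 in the anti-CD40L week 24 arrays and at 10.56, 10.28, 9.69, 10.48 and 10.04 in the control week 16 arrays. Here too the groups did not overlap, with a difference of -1.18 ± 0.23 (SE, adjusted p = 0.0972; 0.00185 with array weights). Of 3 other Igk probe sets, 1 of low intensity had the opposite sign, at 0.23, and the others gave -0.59 and -0.33. As the median over its probe sets Igk differed by -0.46 (adjusted p = 0.604), and Iglv1 by -1.25. Iglv1, a lambda light chain variable gene, averaged 8.15 ± 0.83 in anti-CD40L week 24 glands and 10.03 ± 0.84 in control week 16 glands (SD, n = 5 each), a difference of -1.88 ± 0.50 (SE, adjusted p = 0.167; 0.0189 with array weights), with groups that overlapped. Igha, the constant region of IgA heavy chain and the most intense of these probe sets, averaged 12.89 ± 0.35 in anti-CD40L week 24 glands and 13.45 ± 0.21 in control week 16 glands (SD, n = 5 each), a difference of -0.56 ± 0.27 (SE, adjusted p = 0.657).

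The light chain and J chain differences did not rest on the 2 control arrays that stood apart. Without control week 16 replicates 1 and 4 the differences were -1.10 for Jchain, -0.98 for Igk, -1.34 for Iglv1 and -0.46 for Igha, and the list's median was -0.72, with 4 of 6 genes below 0 and 2 above. Without anti-CD40L week 24 replicates 1 and 4, which held the lowest Jchain levels, the differences were -0.91 for Jchain, -0.98 for Igk, -1.38 for Iglv1 and -0.35 for Igha. Among arrays with Amy1 above 10, 3 anti-CD40L week 24 against 2 control week 16, the list's median was -1.30, and among arrays with Amy1 below 10, 2 against 3, it was -1.03. Ighm, the heavy chain of IgM, was different: its level was 7.76, 11.17, 7.79, 9.61 and 7.60 in the anti-CD40L week 24 arrays and 9.85, 8.48, 7.55, 12.52 and 8.37 in the control week 16 arrays. The groups overlapped widely, and the difference of -0.57 ± 0.77 (SE, adjusted p = 0.957) became 0.65 without control replicates 1 and 4. Of 10 other Ighm probe sets, 2 of low intensity had the opposite sign, at 0.10 and 0.01. The others lay between -0.04 and -1.63. The probe sets used for Iglv1, Ighm, H2-Aa and Gbp2 are of types that Affymetrix marks as able to detect related transcripts. So are those used for Cd40, Gas5, Dbp, Dcpp3, H2-DMb2 and C1s1.

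Plasma cell genes lay on the same side with smaller differences. Of 13 tested, 11 lay lower in anti-CD40L week 24 glands. At an unadjusted p under 0.05, 2 lay lower, as 2.88% of all genes did. The median was -0.22 with all arrays and -0.15 without control replicates 1 and 4. Mzb1, an endoplasmic reticulum chaperone of immunoglobulin assembly, was at 6.84, 8.43, 7.94, 7.56 and 7.62 in the anti-CD40L week 24 arrays and at 9.32, 8.68, 7.86, 9.68 and 8.24 in the control week 16 arrays. Control replicates 3 and 5 lay within the treated range, and the difference was -1.08 ± 0.34 (SE, adjusted p = 0.337; 0.0463 with array weights), or -0.58 without control replicates 1 and 4. Irf4, a transcription factor that plasma cell formation needs, differed by -0.49 ± 0.21 (SE, adjusted p = 0.589).

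Slpi, a secreted inhibitor of leukocyte proteases made by mucosal epithelium, also lay lower. It was at 7.98, 9.53, 8.80, 8.37 and 9.01 in the anti-CD40L week 24 arrays and at 10.43, 9.99, 9.21, 10.46 and 9.66 in the control week 16 arrays. Treated replicate 2 reached above control replicate 3, and the difference was -1.21 ± 0.27 (SE, adjusted p = 0.0972; 0.0119 with array weights). Without control replicates 1 and 4 the difference was -0.88.

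The lower medians of the B cell, T cell and antigen presentation lists turned sign without the 2 control arrays that stood apart. These arrays were singled out by such transcripts, so leaving them out had to raise the medians. Of 14 tested B cell genes 11 lay lower, with a median of -0.28, and without control replicates 1 and 4 the median was 0.07 and 3 of 14 lay lower. Ms4a1, the B cell surface protein CD20, was at 4.78, 5.38, 4.87, 4.93 and 4.56 in the anti-CD40L week 24 arrays and at 6.99, 4.69, 4.70, 7.64 and 4.45 in the control week 16 arrays. Control replicates 2, 3 and 5 lay at the level of the treated arrays, while replicates 1 and 4 lay above all of them, and the difference of -0.79 ± 0.59 (SE, adjusted p = 0.855) became 0.29 without those 2. The same 2 arrays held the highest values for the T cell receptor component Cd3g, 6.58 and 6.69, where the anti-CD40L week 24 arrays ranged between 4.02 and 5.35 and the other control week 16 arrays between 4.02 and 4.18. The T cell list had a median of -0.19 over 13 genes with all arrays and 0.08 without these 2. The cytotoxic T and natural killer cell list had -0.39 over 10 genes and 0.03 without them. Among arrays with Amy1 below 10, treated replicates 1 and 4 against 3 control, the medians were 0.03 for B cell, -0.09 for T cell and -0.14 for cytotoxic genes. Above 10, with 3 treated against 2 control arrays, they were -0.79, -0.47 and -0.92.

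Interferon gamma targets and MHC class II genes also divided the control arrays. All but 1 of 18 tested interferon gamma targets lay lower in anti-CD40L week 24 glands, with a median of -0.44, and all but 1 lay higher without control replicates 1 and 4, with a median of 0.24. Cxcl9, a chemokine that draws activated T cells, was at 4.82, 7.61, 5.89, 4.68 and 5.10 in the anti-CD40L week 24 arrays and at 9.24, 5.13, 5.35, 9.36 and 5.19 in the control week 16 arrays. Only control replicates 1 and 4 lay above treated replicate 2, and the difference was -1.23 ± 0.84 (SE, adjusted p = 0.831). Gbp2, a guanylate-binding GTPase, differed by -0.68 ± 0.51 (SE, adjusted p = 0.86) and 0.31 without the 2 arrays. The MHC class II list had 9 of 10 genes lower with a median of -0.35, and 2 of 10 lower with a median of 0.22 without them. H2-Aa, the alpha chain of I-A, was at 10.65, 11.62, 11.16, 10.87 and 10.37 in the anti-CD40L week 24 arrays and at 12.12, 10.502, 10.92, 12.19 and 10.67 in the control week 16 arrays. The groups overlapped, with a difference of -0.35 ± 0.38 (SE, adjusted p = 0.936). Among arrays with Amy1 above 10 the interferon gamma list had a median of -1.36 and the MHC class II list -1.16, and among arrays with Amy1 below 10 the medians were 0.0026 and 0.12. High Amy1 marked the same 2 control arrays, so the part of parotid tissue in these lists was not tested apart from them.

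**Figure D2:**
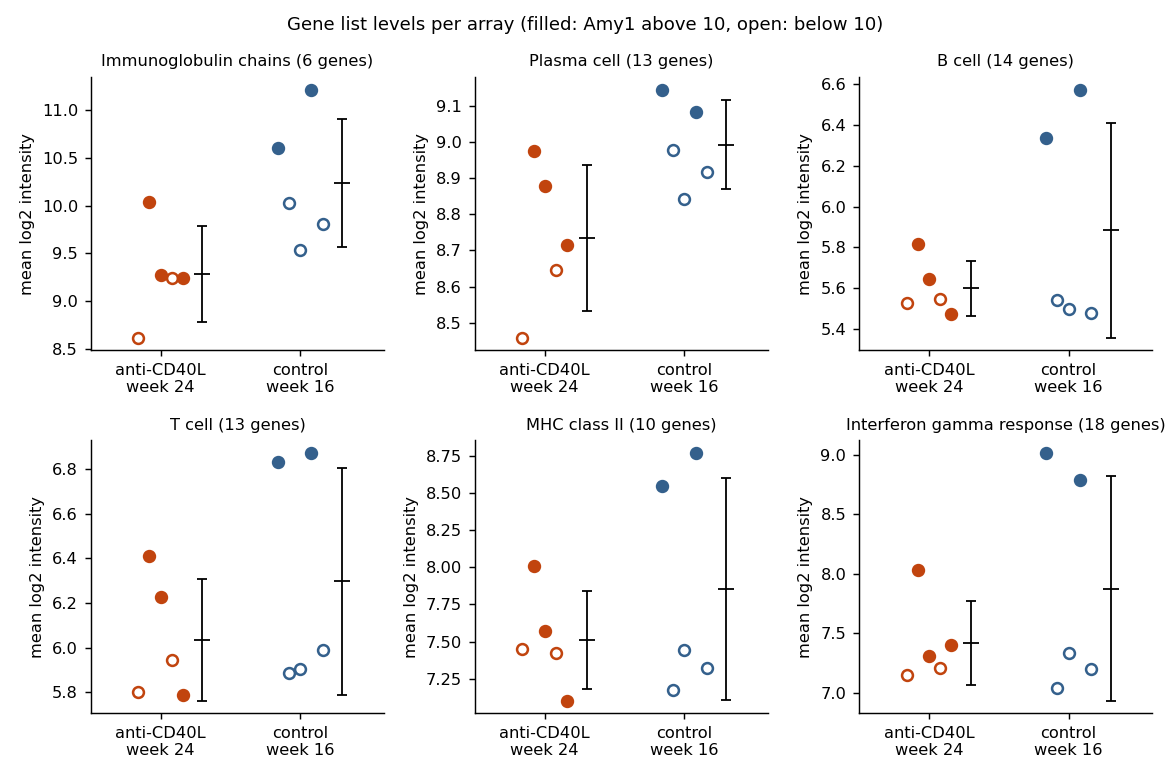
Mean log2 intensity of the tested genes of 6 lists in each array of anti-CD40L week 24 (left) and control week 16 (right), with the mean and SD of each group; filled points are arrays with Amy1 above 10. In the immunoglobulin panel 4 of the 5 treated arrays lie below the lowest control array at 9.54, while in the B cell, T cell, MHC class II and interferon gamma panels 2 filled control arrays lie above all treated arrays. The lowest array of the interferon gamma panel is a control, at 7.04.

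A promoter of each group is shown, chosen because it holds the letters searched for and because H2-Aa and Gbp2 were high in the same 2 control arrays. The Cxcl9 window held no match to the letters shown for Gbp2. The windows lie mostly upstream of the gene start, in RefSeq sequence of build GRCm38.p6. In H2-Aa, at chr17:34287774-34288073 on the minus strand, the capitals mark CCAAT (read on the other strand), the core of the Y box of class II promoters. In Gbp2, at chr3:142620413-142620712 on the plus strand, the capitals mark 2 copies of GAAA with 2 bases between them (read on the other strand), the core of the interferon-stimulated response element.
H2-Aa: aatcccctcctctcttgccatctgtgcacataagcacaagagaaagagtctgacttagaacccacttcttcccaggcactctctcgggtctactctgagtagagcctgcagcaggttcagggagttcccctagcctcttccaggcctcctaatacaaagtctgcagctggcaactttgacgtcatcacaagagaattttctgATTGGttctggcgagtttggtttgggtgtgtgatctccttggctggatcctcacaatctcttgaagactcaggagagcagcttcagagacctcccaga
Gbp2: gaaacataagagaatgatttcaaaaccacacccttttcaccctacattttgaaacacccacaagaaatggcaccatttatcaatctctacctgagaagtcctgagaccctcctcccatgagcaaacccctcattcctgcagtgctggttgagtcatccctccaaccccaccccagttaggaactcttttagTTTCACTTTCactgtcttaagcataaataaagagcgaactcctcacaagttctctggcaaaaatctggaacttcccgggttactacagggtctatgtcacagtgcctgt

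Both strands were searched, and the 2 motifs share no overlap. CCAAT was found in 7 of 7 MHC class II genes with a window, against 37.4% of 32851 windows. It was also found in 8 of 11 clock outputs and repressors (72.7%) and 7 of 12 plasma cell genes (58.3%). Among interferon gamma targets it was in 8 of 14 (57.1%), and among B cell genes in 3 of 11 (27.3%). The 2 copies of GAAA with this spacing were found in 6 of 14 interferon gamma targets with a window (42.9%), against 3.44% of all windows. Other letters were searched as well and are not shown. Of these, ATGCAAAT was in 0 of 12 plasma cell genes and 1 of 11 B cell genes, against 1.74% of all windows. The Jchain window did not hold it. A listed gene was counted if any of its windows matched, while the share over all windows counts each window singly. The 2 shares are therefore not in the same unit. A match describes the letters of the window and does not show that a factor is bound there.

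Macrophage and complement genes had small median differences, which also turned sign without control replicates 1 and 4. Macrophage and dendritic cell genes had a median of -0.18 over 21 genes, 16 of them lower, and the 95% interval of every one of the 21 lay within 1 of 0. Without control replicates 1 and 4 the median was 0.15 and 1 of 21 lay lower. Complement genes had a median of -0.02 over 8 genes, with every interval within the same bounds; without the 2 arrays the median was 0.21 and all 8 lay above 0. Type I interferon genes had a median of -0.15 over 16 genes, 0.17 without the 2 arrays. Among arrays with Amy1 below 10 the medians were -0.04 for macrophage and dendritic cell, -0.01 for complement and -0.15 for type I interferon genes. Among arrays above 10 they were -0.54, -0.16 and -0.41. Prg2, the major basic protein of eosinophils, was at 4.52, 5.10, 5.62, 4.64 and 4.69 in the anti-CD40L week 24 arrays and at 5.56, 5.46, 4.73, 5.91 and 4.93 in the control week 16 arrays. The groups overlapped, with a difference of -0.40 ± 0.22 (SE, adjusted p = 0.727) that became -0.12 without control replicates 1 and 4.

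**Figure D3:**
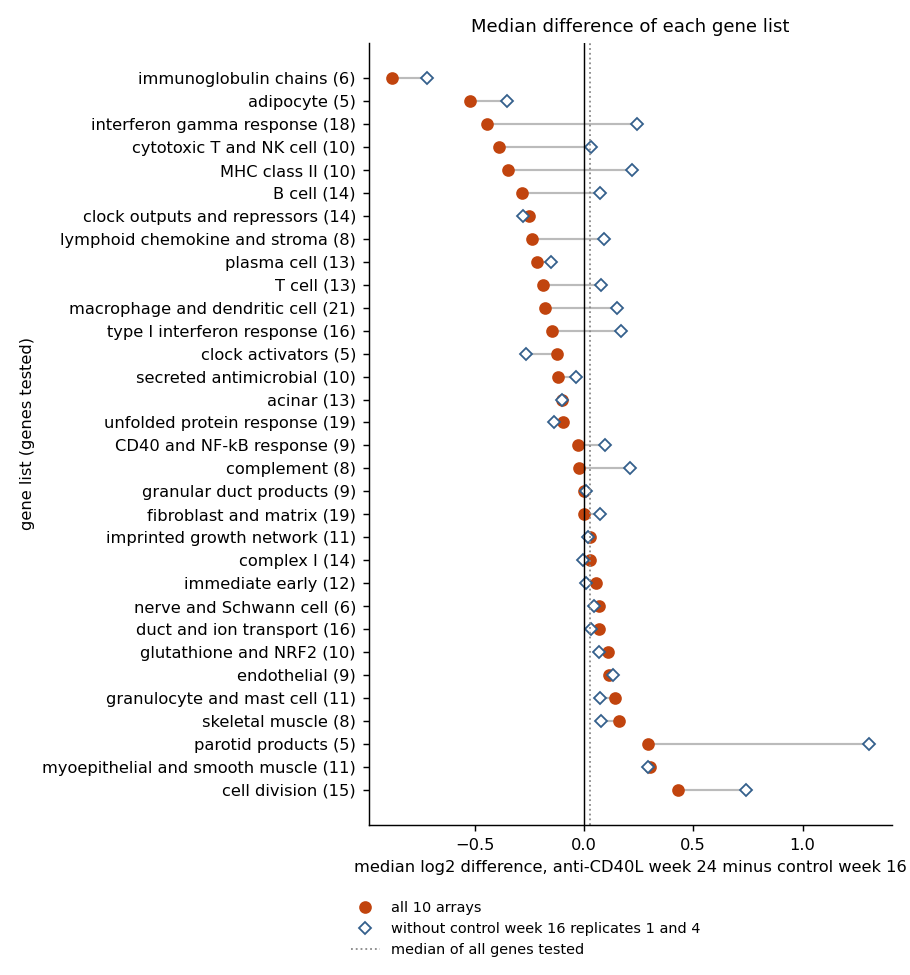
Median log2 difference, anti-CD40L week 24 minus control week 16, of the 32 lists with at least 5 tested genes, with all 10 arrays (filled circles) and without control week 16 replicates 1 and 4 (open diamonds); the number of tested genes stands in brackets and the dotted line is the median of all genes tested, 0.03. The immunoglobulin list lies at -0.88 and -0.72, while the interferon gamma list lies at -0.44 and 0.24.

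To place the treated glands along the control course, genes were taken from a comparison that shares no array with this one, control week 24 against control week 8. There 1103 of 12998 genes were called higher (8.49%) and 521 lower (4.01%) at week 24, and 29.7% passed an unadjusted p under 0.05. The 3' minus 5' difference was between 0.29 and 0.61 in the week 24 controls and between 0.36 and 0.86 in the week 8 controls, and with it as a covariate 434 and 281 genes were called. How arrays were scaled also moved the direction: 67.9% of the course calls were higher as deposited, and 46.7% after quantile normalization. Of the 1103 genes higher in the course, 0 were called between anti-CD40L week 24 and control week 16, 105 lay higher (9.52%) and 20 lower (1.81%) at an unadjusted p under 0.05, and the median difference was 0.06. Of the 521 genes lower in the course, 0 were called, 34 lay lower (6.53%) and 15 higher (2.88%), and the median was -0.04. Over all genes tested the shares at this threshold were 4.49% higher and 2.88% lower, and the median was 0.03. Of the 584 genes lying higher at an unadjusted p under 0.05, 18% belong to the course genes that rose, and of the 374 lying lower, 9.09% belong to those that fell.

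The course genes divided by whether they belonged to 1 of 14 immune lists. The 73 in an immune list had a median difference of -0.25, with 80.8% below 0 against 42.6% of all genes. At an unadjusted p under 0.05, 6 lay lower (8.22%) and 0 higher, against 2.88% and 4.49% of all genes. Their mean level was 7.04, 7.78, 7.33, 7.13 and 7.26 in the anti-CD40L week 24 arrays and 8.21, 7.14, 7.20, 8.30 and 7.23 in the control week 16 arrays, beside group means of 6.93 in week 8 controls and 8.33 in week 24 controls. All treated arrays lay below the week 24 control mean and above the week 8 control mean, and control replicates 2, 3 and 5 lay among them. The week 8 control arrays ranged from 6.39 to 7.60, and only treated replicate 2 lay above that range. The week 24 control arrays ranged from 7.68 to 8.91, and only treated replicate 2 lay within that range. Without control replicates 1 and 4 the median difference was 0.18, and for 58.9% of these genes the interval lay within 1 of 0.

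The other 1030 course genes that rose, in no immune list, had a median difference of 0.07 and an interval within 1 of 0 for 95.4% of them. Their mean level was 8.10, 8.18, 8.15, 8.17 and 8.15 in the anti-CD40L week 24 arrays and 8.24, 8.06, 7.99, 8.13 and 8.09 in the control week 16 arrays, beside 7.54 in week 8 controls and 8.19 in week 24 controls. The treated arrays thus lay at the levels of the later controls and well above the week 8 mean. The 521 genes that fell had a mean of 7.94 ± 0.02 in anti-CD40L week 24 glands and 7.98 ± 0.05 in control week 16 glands (SD, n = 5 each), beside 8.49 in week 8 controls and 8.01 in week 24 controls. Measured from the week 8 controls, the median change of the 73 immune genes was 0.32 in anti-CD40L week 24 glands, against 0.53 at week 16 and 1.22 at week 24 in controls. For the 1030 other genes it was 0.57 in anti-CD40L week 24 glands, against 0.51 at week 16 and 0.56 at week 24 in controls. The week 8 and week 24 controls chose these genes, so changes measured from them are a description only.

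**Figure D4:**
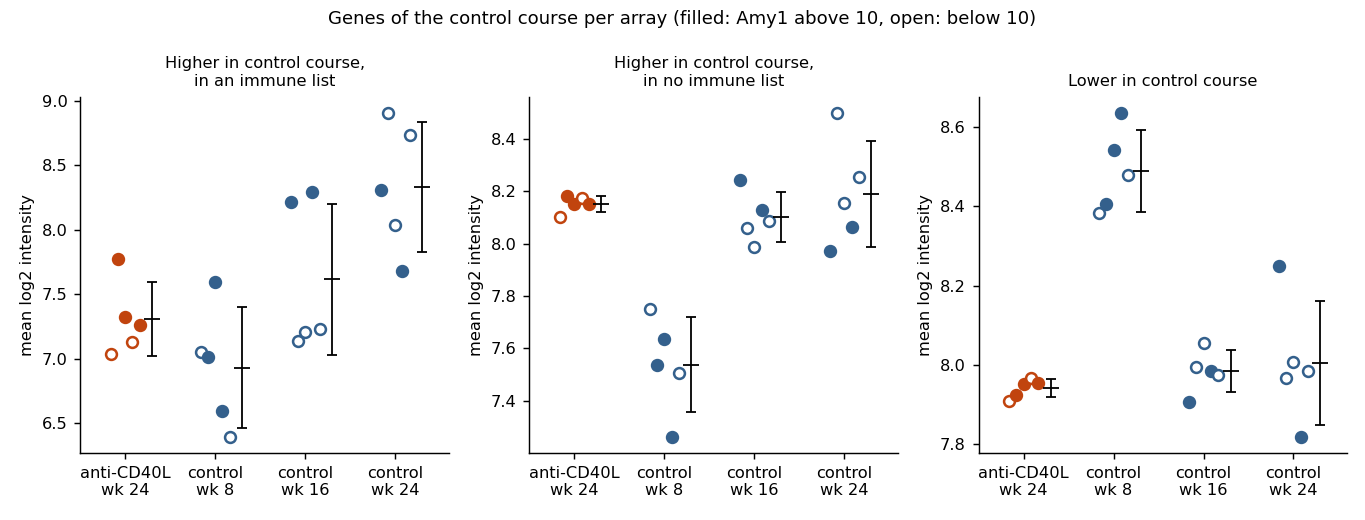
Mean log2 intensity per array of 73 course genes in an immune list (left), 1030 course genes in no immune list (middle) and 521 course genes that fell (right), in anti-CD40L week 24 and in control glands at weeks 8, 16 and 24, with the mean and SD of each group; filled points are arrays with Amy1 above 10. Treated arrays lie between the week 8 and week 24 control means on the left and with the week 16 and week 24 controls in the other 2 panels. On the left all treated arrays but the highest also lie within the range of the week 8 control arrays.

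Jchain, Igk and Igha had treated means between those of the week 8 and week 16 controls. Jchain averaged 10.77 in anti-CD40L week 24 glands, against 9.81, 12.13 and 12.56 in controls at weeks 8, 16 and 24. Its week 8 control arrays ranged from 8.29 to 10.99 and overlapped the treated arrays. Igk averaged 9.03 in anti-CD40L week 24 glands, against 8.26, 10.21 and 10.27 in the same controls. Igha, at 12.89 in anti-CD40L week 24 glands, lay closer to the later controls, at 10.65, 13.45 and 13.40. Ighm, of the same list, did not lie between those control means. It averaged 8.78 in anti-CD40L week 24 glands, below all 3 control means of 9.11, 9.35 and 12.76. Slpi averaged 8.74 in anti-CD40L week 24 glands, against 8.59, 9.95 and 10.81, and so lay near the week 8 mean.

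Outside the immune lists, the genes with the lowest p values were of varied kinds, and they are described here after their values were seen. The lowest adjusted p belonged to 2410022M11Rik, whose level was 7.63, 7.99, 7.53, 7.58 and 7.71 in the anti-CD40L week 24 arrays and 7.04, 6.89, 7.24, 7.03 and 6.95 in the control week 16 arrays. The groups did not overlap (difference 0.66 ± 0.12, SE, adjusted p = 0.0797; 0.00118 with array weights), and the median over its probe sets gave 0.43. The week 8 and week 24 controls averaged 8.00 and 8.15, so the treated level lay within the range of the control ages. Tm7sf2, a sterol reductase of cholesterol synthesis, was at 8.60, 9.82, 8.72, 8.49 and 8.89 in the anti-CD40L week 24 arrays and at 7.82, 8.08, 8.28, 7.98 and 8.20 in the control week 16 arrays. Every treated array lay above all 15 control arrays of the 3 ages, as 0.392% of all genes did, and the difference was 0.84 ± 0.17 (SE, adjusted p = 0.0972; 0.00185 with array weights). Fdps, farnesyl diphosphate synthase of the same pathway, also had groups that did not overlap, at 10.06 ± 0.36 in anti-CD40L week 24 glands and 9.15 ± 0.17 in control week 16 glands (SD, n = 5 each; adjusted p = 0.12).

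Other genes picked after their values were seen were Clk1, Hnrnpa1, Cirbp, Snhg1 and Gas5, which form no list. Clk1, a kinase of splicing factors, was at 9.56, 9.43, 9.36, 9.88 and 9.35 in the anti-CD40L week 24 arrays and at 10.22, 10.18, 10.17, 10.20 and 10.06 in the control week 16 arrays. The groups did not overlap, with a difference of -0.65 ± 0.14 (SE, adjusted p = 0.0972; 0.000703 with array weights). Hnrnpa1, a splicing repressor, differed by -0.51 ± 0.11 (SE, adjusted p = 0.0972; 0.00118 with array weights), and by -0.12 as the median over its probe sets. Cirbp, a cold-inducible RNA-binding protein, differed by 0.75 ± 0.16 (SE, adjusted p = 0.0972; 0.00194 with array weights). Neither had overlapping groups. Snhg1, a host transcript of small nucleolar RNAs, was at 9.11, 9.28, 9.16, 8.95 and 9.14 in the anti-CD40L week 24 arrays and at 9.59, 9.51, 9.49, 9.59 and 9.54 in the control week 16 arrays. All treated arrays lay below all 15 control arrays, as 0.0615% of genes did, by a gap of 0.21 (difference -0.42 ± 0.15, SE, adjusted p = 0.431; 0.015 with array weights). Gas5, another such host transcript, also lay below all 15 control arrays, at -0.29 ± 0.09 (SE, adjusted p = 0.317; 0.0262 with array weights). The median over its probe sets gave -0.77 (adjusted p = 0.0224).

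Cell division genes lay higher in anti-CD40L week 24 glands for all 15 tested, with a median of 0.43 and 0 called. At an unadjusted p under 0.05, 1 lay higher, as 4.49% of all genes did. The median was 0.74 without control replicates 1 and 4. Cdk1, the kinase that drives entry into mitosis, was at 6.83, 8.58, 7.37, 6.996 and 7.55 in the anti-CD40L week 24 arrays and at 7.09, 6.25, 6.75, 6.78 and 6.12 in the control week 16 arrays. The groups overlapped (difference 0.87 ± 0.39, SE, adjusted p = 0.645). Birc5, which encodes the mitotic protein survivin, differed by 0.996 ± 0.50 (SE, adjusted p = 0.689), and treated replicate 2 held the highest value of both genes. The list's mean level was 6.52 ± 0.43 in anti-CD40L week 24 glands and 6.03 ± 0.24 in control week 16 glands (SD, n = 5 each), with the week 8 and week 24 controls between them at 6.28 and 6.19.

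Clock genes were described in 2 lists. Of 5 tested activators 3 lay lower and 2 higher, with a median of -0.12. Arntl, the activator BMAL1, was at 7.21, 6.64, 6.43, 7.10 and 5.96 in the anti-CD40L week 24 arrays and at 5.24, 5.50, 5.41, 5.96 and 6.33 in the control week 16 arrays. Treated replicate 5 lay within the control range (difference 0.98 ± 0.31, SE, adjusted p = 0.337), the other Arntl probe set gave -0.01, and the median over both gave 0.48. Cry1, a repressor that the same list holds, differed by -0.51 ± 0.24 (SE, adjusted p = 0.662). Of 14 tested outputs and repressors 12 lay lower, with a median of -0.25. At an unadjusted p under 0.05, 1 lay lower, as 2.88% of all genes did. Dbp, a rhythmic transcription factor that BMAL1 activates, averaged 9.63 ± 0.55 in anti-CD40L week 24 glands and 10.44 ± 0.77 in control week 16 glands (SD, n = 5 each; adjusted p = 0.862). The repressor Per2 differed by -0.44 ± 0.17 (SE, adjusted p = 0.508). The labels give no hour of collection.

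Among the cell types of the gland itself, myoepithelial and smooth muscle genes lay higher for 10 of 11, with a median of 0.30, and 0 called. At an unadjusted p under 0.05, 3 lay higher, as 4.49% of all genes did. Mylk, the kinase of the smooth muscle myosin light chain, was at 10.23, 10.26, 10.58, 10.13 and 10.55 in the anti-CD40L week 24 arrays and at 10.02, 9.83, 9.79, 9.92 and 10.03 in the control week 16 arrays. The groups did not overlap (difference 0.43 ± 0.19, SE, adjusted p = 0.609; 0.0368 with array weights). Actg2, a smooth muscle actin, differed by 0.53 ± 0.24 (SE, adjusted p = 0.657; 0.0454 with array weights).

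Acinar genes had a median of -0.10 over 13 genes, and duct and ion transport genes 0.07 over 16. Dcpp1 differed by -1.74 ± 0.57 (SE, adjusted p = 0.351) and its relative Dcpp3 by -1.31 ± 0.49 (SE, adjusted p = 0.462), and without treated replicates 1 and 4 the differences were -0.03 and 0.03. Folr1, a folate receptor, was at 10.10, 10.71, 10.43, 10.17 and 10.20 in the anti-CD40L week 24 arrays and at 9.42, 9.68, 9.81, 9.81 and 9.70 in the control week 16 arrays. Its groups did not overlap, with a difference of 0.64 ± 0.14 (SE, adjusted p = 0.0972; 0.00126 with array weights). Aqp5, the acinar water channel, averaged 11.78 ± 0.22 in anti-CD40L week 24 glands and 11.89 ± 0.12 in control week 16 glands (SD, n = 5 each; adjusted p = 0.942).

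Of 19 tested unfolded protein response genes 15 lay lower in anti-CD40L week 24 glands, with a median of -0.09. At an unadjusted p under 0.05, 3 lay lower, as 2.88% of all genes did. Manf, a secreted stress-induced protein of the endoplasmic reticulum, was at 11.40, 11.39, 11.55, 11.46 and 11.57 in the anti-CD40L week 24 arrays and at 11.83, 11.87, 11.93, 11.56 and 11.89 in the control week 16 arrays. Control replicate 4 lay within the treated range (difference -0.34 ± 0.09, SE, adjusted p = 0.18; 0.00806 with array weights). Fibroblast and matrix genes, with a median of 0.0022 over 19, and complex I subunits, with 0.03 over 14, all had intervals within 1 of 0.

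**Figure D5:**
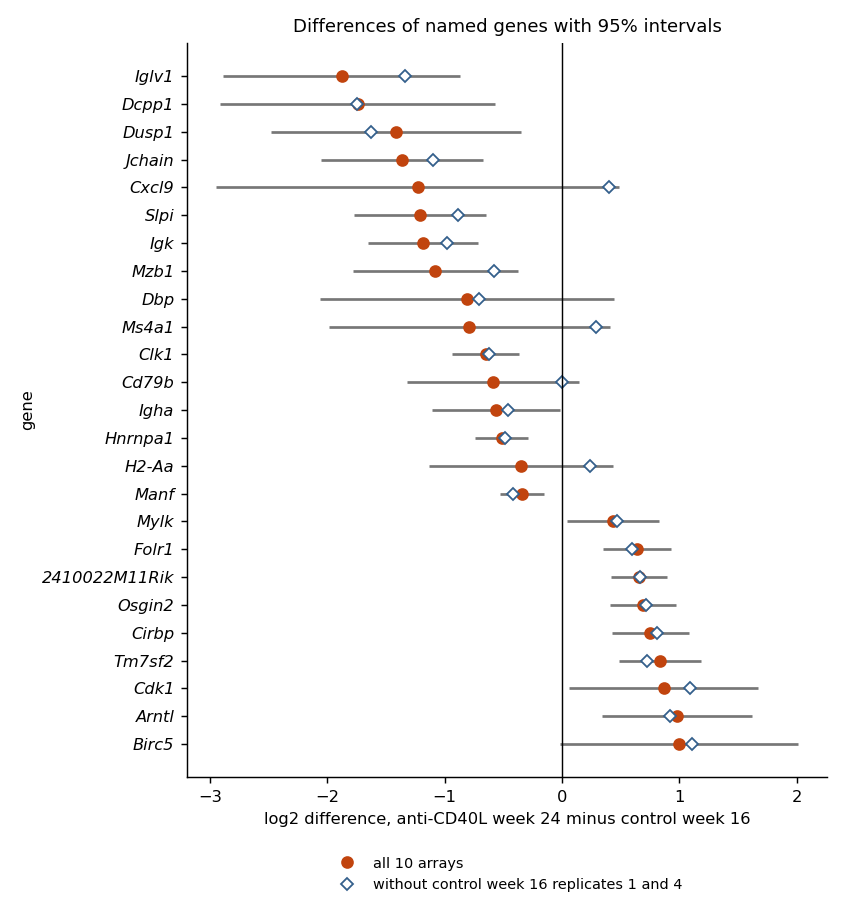
Log2 difference, anti-CD40L week 24 minus control week 16, of 25 named genes, with the 95% interval of the limma fit (lines), all 10 arrays (filled circles) and the difference without control week 16 replicates 1 and 4 (open diamonds). Jchain, Igk, Iglv1 and Slpi stay below 0 in both, while Cxcl9, Ms4a1 and H2-Aa move to 0.40, 0.29 and 0.24 without the 2 arrays.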

How the data were processed

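Labelled cRNA from 2 ug of total RNA per gland sample was hybridised to 1 array each, per the labels. The deposited table was used as given: its log2 intensities ranged from 2.757 to 14.457, with array medians between 5.487 and 5.537, and the log2 scale was read from these values. Per the submitters' processing notes limma was used, its version not given, and the summarisation and normalisation of probes by the authors are not given in the sources used here.

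Of 45101 probe sets, 34945 had exactly 1 gene in the platform annotation, 932 had several, 9160 were unnamed here and 64 were array controls; 34741 were matched by Entrez identifier to RefSeq of GRCm38.p6 and 0 symbols needed updating. Each of 18193 genes took the probe set of highest mean intensity (30 arrays), and 12998 genes above the median of their own array in at least 5 arrays were tested. One mean per group was fitted to the 6 groups with limma 3.58.1 in R 4.3.3, and the contrasts were anti-CD40L week 24 minus control week 16 and, from arrays outside it, control week 24 minus control week 8. P values were adjusted by Benjamini-Hochberg over the genes tested, with a threshold of 0.05. The fit was also run on simulated data in which every array had the same spread. That run does not bear on the unequal spread between arrays of the real data. P values rest on the spread between arrays within all 6 groups, and no 2 arrays were duplicates (highest correlation 0.9944).

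A set of 34 gene lists with 499 members, 369 of them tested, is described by counts and medians. The comparison, lists and members were chosen with earlier results of these data known. Some genes were named by rule (Cd40lg, Cd40 and up to 2 members with the largest difference of a described list). Igk, Igha, Ighm, Cd79b, Cd3d, Cd74, Cxcl13, Egf, H2-Aa, Gbp2, Aqp5 and Fdps were chosen for mention once values had been seen. So were those outside any list and those chosen for a low p or for lying beyond all control arrays. Some genes counted are not reported by name here. Arrays were also divided at an Amy1 level of 10, a choice made after seeing the data. Same-numbered arrays of the 2 groups did not deviate together (correlations -0.317, -0.299, 0.026, -0.223 and -0.097), so the numbers were not used as pairs. Alternatives were quantile normalisation, centring, other filters, the median over probe sets, array weights, a replicate block, fewer arrays, covariates and leaving out arrays.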

Additional observations from a re-analysis of the deposited data

Results flagged for a closer look

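Single arrays that lay far from the others of their group were found in 8 of 194 groups of values examined, where chance gives about 1 in 20. Anti-CD40L week 24 replicate 2 accounted for 3 of them, each as the highest array: the interferon gamma list at 8.028 (next 7.401), the interferon-induced GTPase Gbp6 at 6.786 (next 5.955) and the skeletal muscle list at 6.382 (next 5.601). Control week 16 replicate 4 accounted for another 3, each as the lowest array: the nerve and Schwann cell list at 7.286 (next 7.369), Creld2, a chaperone of the endoplasmic reticulum, at 9.664 (next 10.183), and Manf at 11.558 (next 11.831). Dusp1, a phosphatase of the MAP kinase pathway, was highest in anti-CD40L week 24 replicate 4 at 10.693 (next 8.611), and the granular duct list was lowest in control week 16 replicate 5 at 13.009 (next 13.171).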

How the results depend on the processing

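The 0 genes called became 4 with quantile normalisation (3 higher, 1 lower), 3 with the median over probe sets (0 and 3, of 11498 tested), 444 with array weights (244 and 200), 1 with only the 10 arrays compared (2125 at an unadjusted p under 0.05), 2 with Amy1 as a covariate, and 0 to 4 with 1 array left out. Chosen after seeing the data, arrays with Amy1 above 10 gave 1, arrays below 10 gave 33 (4 and 29) and leaving out anti-CD40L week 24 replicates 1 and 4 gave 3. The treated arrays below 10 are these same replicates 1 and 4, which had low Dcpp1 and Ltf. The control course of 1624 genes became 41 with only its 10 arrays, 715 with the 3' minus 5' covariate, and between 721 and 3228 with 1 array left out: 721 without control week 24 replicate 2, 768 without week 8 replicate 4, 2780 without week 8 replicate 1 and 3228 without week 24 replicate 1. With only 10 arrays the median of the genes that rose in the course was -0.33 (33 genes), and -0.082 for those in no immune list (24 genes). For genes that fell in the course it was 0.0042 among arrays with Amy1 above 10. The causes of these shifts were not tested, apart from the smaller number of arrays or genes in some.

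The replicate numbers as a block left 0 genes called, and 1433 in the control course (985 higher, 448 lower); the block changed no other call.

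Without control week 16 replicates 1 and 4 the sign turned for Ighm (0.65), Ms4a1 (0.29), Cd79b (0.0035), H2-Ob (0.21), Cd3g (0.42), Cd3d (0.17), H2-Aa (0.24), Cd74 (0.13), H2-DMb2 (0.091), Cxcl9 (0.40), Gbp6 (0.11), Gbp2 (0.31), Cxcl13 (0.30), Ltb (0.16), Klrd1 (0.062), Mpeg1 (0.15), Rtp4 (0.16) and C1s1 (0.28). Without anti-CD40L week 24 replicates 1 and 4 it turned for Ltb (0.12), Ltf (0.97), Dcpp3 (0.035), Rtp4 (0.16) and Ifi27l2a (0.083). With 1 array left out, Egf ranged from -0.092 to 0.049 and Ighm from -1.16 to 0.22, while the group difference ranged from -0.316 to 1.3 for Amy1 and from -0.047 to 0.193 for the skeletal muscle list.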

Other observations

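Further gene groups had values that the comparison above did not describe. Granulocyte and mast cell genes had a median difference of 0.14 over 11 genes, with 3 below 0, and endothelial genes 0.12 over 9, with 2 below 0. All 6 nerve and Schwann cell genes lay above 0, with a median of 0.07. Adipocyte genes had a median of -0.52 over 5, with wide spread: Adipoq, the fat hormone adiponectin, was at 3.89, 8.67, 6.76, 3.87 and 6.24 in the anti-CD40L week 24 arrays and at 7.05, 9.78, 5.44, 8.23 and 3.49 in the control week 16 arrays. Ucp1, the uncoupling protein of brown fat, reached 9.09 in control week 16 replicate 2 and lay between 4.83 and 5.25 in the other 9 arrays.

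Among the immediate early genes Dusp1 differed by -1.41 ± 0.52 (SE, adjusted p = 0.458; 0.0216 with array weights), with 4 treated arrays between 7.91 and 8.61, replicate 4 at 10.69, and control week 16 arrays between 8.63 and 11.01. Egr1, a transcription factor induced within minutes of stimulation, differed by 0.63 ± 0.36 (SE, adjusted p = 0.746), and the list's median was 0.06 over 12 genes. Fbp1, fructose bisphosphatase, was named after its values were seen: all 5 anti-CD40L week 24 arrays, between 10.24 and 10.54, lay above all 15 control arrays, and the control week 16 arrays lay between 9.60 and 10.06 (difference 0.46 ± 0.14, SE, adjusted p = 0.237).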
